A study of Caenorhabditis elegans with 6 samples.

Results

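The ugt genes of Caenorhabditis elegans, which encode UDP-glucuronosyltransferases, were described in nematodes exposed to chlorpyrifos (CPF) and diazinon (DZN), organophosphate pesticides, in combination. Every gene on the array whose symbol begins with ugt- was taken, and where a gene had several probes the one with the highest mean log2 intensity was used. This gave 64 ugt genes among 18999 features tested. The RefSeq gene table lists 67, and ugt-16, ugt-34 and ugt-35 had no probe under these names. Strain N2 was fed on E. coli OP50 at 24 °C with CPF (0.5 mg/l) and DZN (1 mg/l) in the agar, and its RNA was compared on 6 two-colour arrays with that of controls given the solvent acetone alone. The mixture carried Cy5 on 3 of the arrays and Cy3 on the other 3, and a number (1 to 3) names the replicate within each dye orientation. N2 is the wild-type laboratory strain, used in both groups, and whole nematodes were extracted. The labels give an age of 72 h and stage L3/L4, whereas the methods of the study give late L3 and a shorter time, so neither age nor stage is certain.

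UDP-glucuronosyltransferases join a sugar from a UDP-sugar donor to small, fat-soluble molecules, which makes these more soluble in water and easier to export. This step, often called phase II of detoxification, follows phase I, in which cytochrome P450 enzymes and other enzymes add or expose a reactive group. In mammals the sugar is mostly glucuronic acid, while glucose conjugates are known from nematodes, in which the intestine is a main site of foreign compound metabolism. The substrates of most nematode members are unknown, so the genes below are described by their level, their response and their place in the genome.

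The share of C. elegans spots well above background (foreground median over the background median plus 2 background SDs) ranged from 44.1 to 54.9% in the mixture channel and from 47.9 to 58.1% in the control channel. Mixture in Cy5 replicate 3 stood apart, with a mean correlation of 0.276 with the log2 ratios of the other arrays. Replicate 2 with the mixture in Cy5 and replicate 1 with it in Cy3 carry the same mixture extract number in the scanner headers, while the methods describe independent samples. The number of arrays limits the precision of all values below. Of the 64 ugt probes, 40 exceeded this limit on 3 or more arrays of each group, 24 on all 6 of each, and 8 in neither group on any array (ugt-3, ugt-27, ugt-32, ugt-38, ugt-55, ugt-56, ugt-59 and ugt-65). No ugt spot had saturated pixels.

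Nematodes on CPF+DZN had significantly higher transcript levels of 23 of the 64 ugt genes (35.9%) and significantly lower levels of 3 (4.69%), whereas 38 did not pass the test. Over all features 6.74% were called higher and 7.13% lower by the same test. A gene was called where its mixture effect in a limma model with a dye term had a Benjamini-Hochberg adjusted p under 0.05 over all 18999 features, and every adjusted p of a gene is from this model unless another is named. The median log2 ratio of mixture over control was 0.27 for the ugt genes and 0.00013 for all features. The ugt median was 0.58 with plain background subtraction (62 ugt genes left), 0.16 with no background correction and 0.10 in the value table of the authors (63 ugt genes). At an unadjusted p under 0.05, 35 of the 64 ugt genes were higher and 5 lower, compared with 13.9% and 14.9% of all features. A ratio of at least 2-fold was found in 11 of the genes called higher (17.2% of the 64), compared with 0.858% of all features. The sign was positive on all 6 arrays for 23 ugt genes (35.9%, against 8.76% of all features) and negative on all 6 for 4 (6.25%, against 8.62%). The samples of the mixture all lay above those of the control for 7 (10.9%, against 0.658%), and the reverse held for 0 (against 0.395%).

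The count of ugt genes called higher was 15 without mixture in Cy3 replicate 2, 14 without mixture in Cy3 replicate 3 and 28 without mixture in Cy5 replicate 3. The count over all features, 1281 with every array, was 480, 357 and 2173 in the same order. Centring each array on its median in place of loess gave 21 higher and 9 lower, so that 70% of the calls were higher in place of 88.5%. Over all features the same step moved the calls from 1281 higher and 1355 lower to 679 and 3439. For the ugt genes plain background subtraction gave 15 higher and 0 lower.

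**Figure D1:**
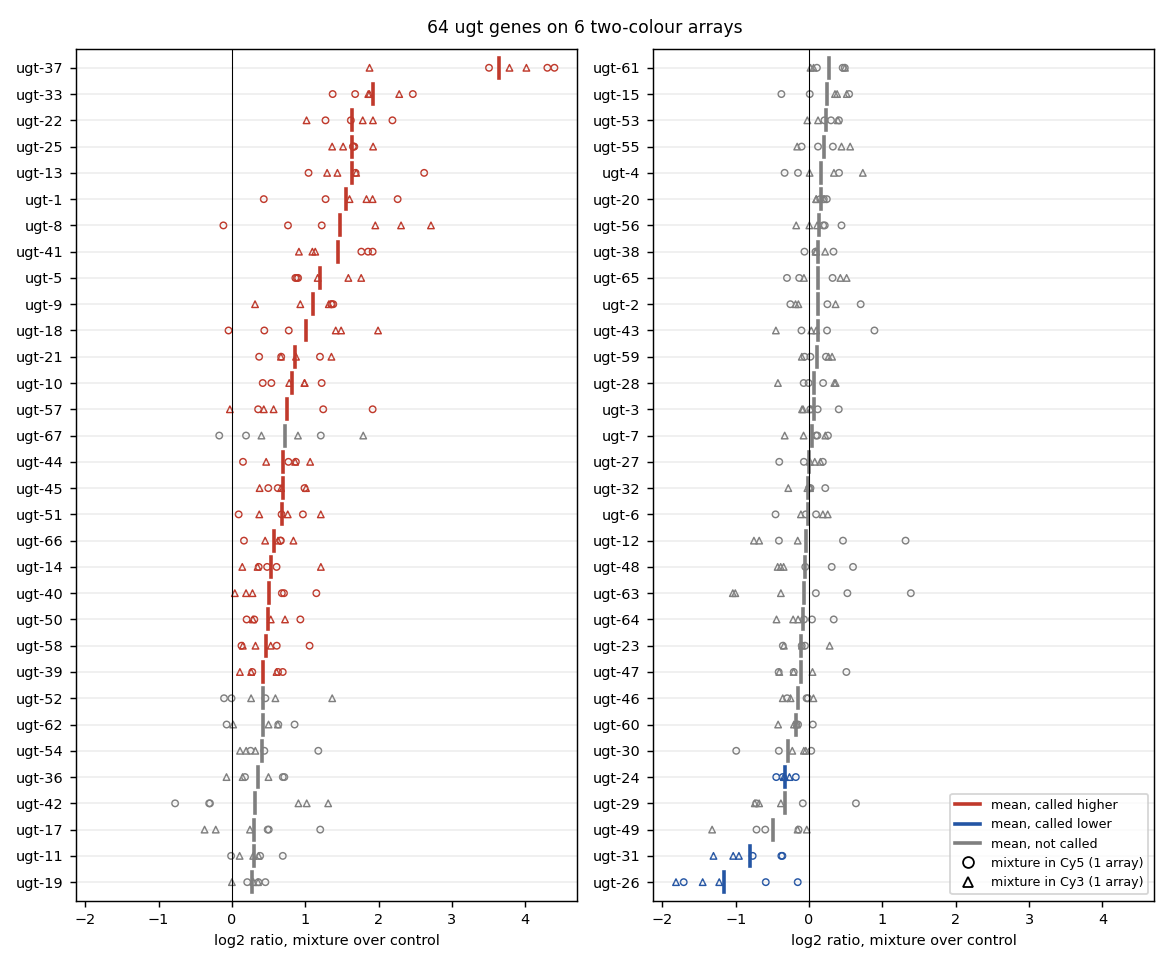
Log2 ratio of mixture over control (x axis) for each of the 64 ugt genes (rows, sorted by their mean) on each of the 6 arrays, with circles for the 3 arrays with the mixture in Cy5, triangles for the 3 with the mixture in Cy3 and a bar at the mean. The 23 genes called higher (red) run from ugt-37 with a mean of 3.65 to ugt-39 with 0.43, and the 3 called lower (blue) lie between -0.32 and -1.16.

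The largest response of the family was that of ugt-37. Its normalized log2 intensity was 6.21, 6.56 and 6.91 in the lowest, median and highest control sample, and 8.38, 10.64 and 11.13 in the mixture. The groups did not overlap, and the control was well above background on 3 of 6 arrays while the mixture was on all 6. The log2 ratios were 4.40, 4.30 and 3.51 on the arrays with the mixture in Cy5 and 1.88, 4.02 and 3.78 on those with the mixture in Cy3. The mean ratio was 3.65 ± 0.93 (SD, n = 6), or 12.5-fold, with an adjusted p of 5.88e-04. The size depended on the background correction, with a ratio of 5.13 (35.0-fold) after plain subtraction, 2.85 (7.20-fold) with no correction and 2.63 (6.18-fold) in the value table of the authors, while the call was kept in all 3. The array with the low value, mixture in Cy3 replicate 1, was still above every control sample, and without it the mean was the highest of the means with 1 array left out, which ran from 3.45 to 3.98.

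Among the ugt genes with bright probes, ugt-22 and ugt-25 rose 3.11-fold and 3.10-fold. In C. elegans ugt-22 has been linked to the response to the anthelmintic albendazole. Its level ran from 11.10 over a median of 11.77 to 13.02 in the control and from 12.17 over 13.59 to 14.30 in the mixture, so that the groups overlapped, although the ratio was positive on each array (1.02 to 2.19). Its mean log2 ratio was 1.64 ± 0.43 (SD, n = 6, adjusted p = 0.00149). The ratio of ugt-25 varied less between arrays than that of any other member called higher. Its level was 9.16, 9.59 and 10.02 in the lowest, median and highest control sample and 10.83, 11.11 and 11.80 in the mixture, with no overlap. The log2 ratio of ugt-25 was 1.63 ± 0.19 (adjusted p = 1.31e-04).

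Of the genes with 1 sign on all arrays and probes above background in both groups on 3 or more, the next in order of the ratio were ugt-13, ugt-1, ugt-41 and ugt-5, all at least 2-fold higher. The level of ugt-13 ran from 7.81 to 8.80 (median 8.60) in the control and from 9.72 to 10.43 (median 10.05) in the mixture, a log2 ratio of 1.63 ± 0.54 (adjusted p = 0.00319). That of ugt-1 ran from 7.32 to 8.17 (median 7.88) and from 8.15 to 10.09 (median 9.47), a ratio of 1.55 ± 0.64 (adjusted p = 0.0058). The samples of ugt-13 did not overlap between the groups, while for ugt-1 the lowest mixture sample, mixture in Cy5 replicate 2 with a ratio of 0.43, came just under the highest control sample. The level of ugt-41 ran from 6.53 to 8.31 (median 7.55) in the control and from 8.45 to 9.81 (median 8.98) in the mixture, a ratio of 1.45 ± 0.45 (adjusted p = 7.85e-05). For ugt-5 it ran from 7.43 to 8.10 (median 7.84) and from 8.65 to 9.65 (median 8.89), a ratio of 1.20 ± 0.39 (adjusted p = 6.68e-04). Neither of these genes had samples that overlapped. The ratio of ugt-41 was 1.77 to 1.92 with the mixture in Cy5 and 0.91 to 1.14 with it in Cy3, and that of ugt-5 was 0.87 to 0.90 and 1.17 to 1.76, although the dye term passed the test for neither.

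The ratios of ugt-21, ugt-44, ugt-45, ugt-51 and ugt-66 were smaller, 1.48-fold (ugt-66) to 1.81-fold (ugt-21), and positive on all 6 arrays. Their mean log2 ratios were 0.86 ± 0.37 for ugt-21 (adjusted p = 0.00998), 0.70 ± 0.33 for ugt-44 (0.0142), 0.70 ± 0.26 for ugt-45 (0.0101), 0.68 ± 0.40 for ugt-51 (0.0229) and 0.57 ± 0.23 for ugt-66 (0.0132). The samples of the groups overlapped for all 5. Only the call of ugt-21 was kept with each array left out in turn. The highest adjusted p was 0.0671 for ugt-44 (call lost without mixture in Cy5 replicate 2, Cy3 replicate 1 or Cy3 replicate 3), 0.0511 for ugt-45 (lost without mixture in Cy3 replicate 3), 0.0893 for ugt-51 (lost without Cy5 replicate 1 or 2 or Cy3 replicate 2 or 3) and 0.0585 for ugt-66 (lost without Cy5 replicate 2 or Cy3 replicate 2).

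**Figure D2:**
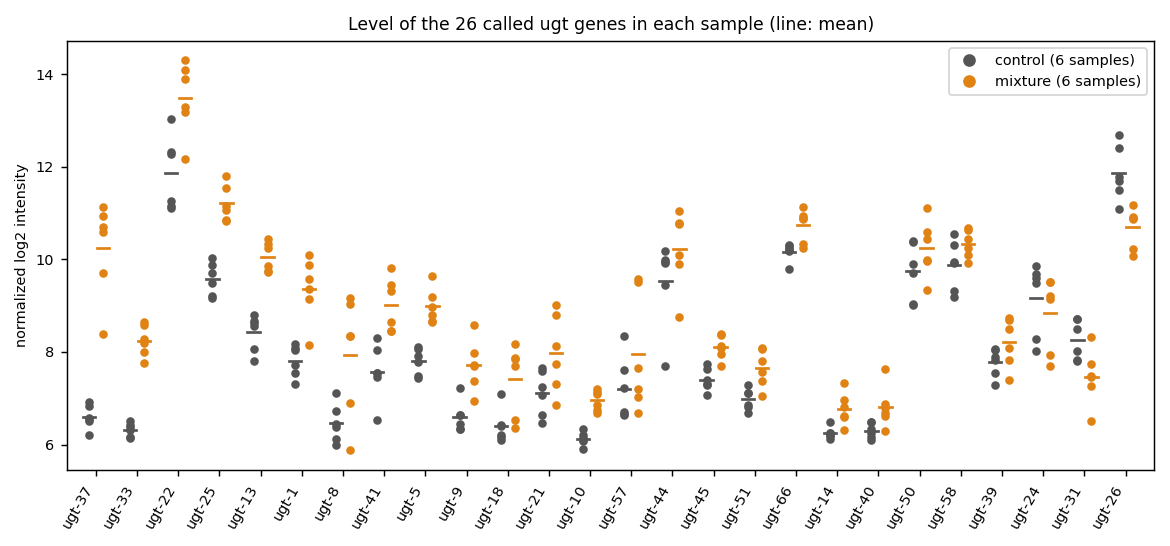
Normalized log2 intensity (y axis) of the 26 called ugt genes in the 6 control samples (grey) and the 6 mixture samples (orange), with a line at each mean. The control samples of ugt-37 lie between 6.21 and 6.91 and its mixture samples between 8.38 and 11.13, and for 19 of the 26 genes the samples of the groups overlap. Levels of different genes come from different probes and are not comparable.

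For 4 of the genes called higher no control sample was well above background, so that their fold is given as a lower bound. It is the mean of the mixture against the control's mean of, on each array, the probe's own signal or, if higher, that of the dimmest probe still well above background. Levels of ugt-33 were at least 3.02-fold higher with the mixture (adjusted p = 5.88e-04), which was well above background on all 6 arrays. This bound holds for the background correction used, since the log2 ratio of ugt-33 was 1.22 (2.33-fold) with no correction and 1.28 (2.44-fold) in the value table of the authors. Its mixture samples ran from 7.76 over a median of 8.24 to 8.64 and its control samples from 6.13 over 6.35 to 6.52, with no overlap. The bound was 1.23-fold for ugt-10 (mixture above background on 2 arrays, adjusted p = 0.00688), 1.12-fold for ugt-40 (2 arrays, 0.0142) and 1.09-fold for ugt-14 (1 array, 0.0436). For ugt-10, ugt-40 and ugt-14 the mixture mean includes arrays on which the mixture was not above background, so these values are not firm bounds. The call of ugt-14 was lost without any 1 of the arrays other than mixture in Cy5 replicate 3 (adjusted p up to 0.122), and that of ugt-40 without mixture in Cy3 replicate 2 or 3 (up to 0.0659).

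The remaining 7 genes called higher lie outside the rule for naming and are named after their values were seen. For ugt-9 the log2 ratio was 1.11 ± 0.43 (adjusted p = 0.00319), with the control above background on 1 array. The ratios of ugt-50 (0.50 ± 0.29, adjusted p = 0.0302), ugt-58 (0.47 ± 0.35, 0.0453) and ugt-39 (0.43 ± 0.24, 0.0278) were positive on all 6 arrays, but the call was lost without 5 of the 6 arrays one at a time for ugt-50 and ugt-39 and without 4 for ugt-58 (adjusted p up to 0.118, 0.0951 and 0.159). The other three, ugt-8, ugt-18 and ugt-57, had a ratio below 0 on 1 array each. For ugt-57 it ran from -0.03 on mixture in Cy3 replicate 3 to 1.92 on mixture in Cy5 replicate 1 (mean 0.75 ± 0.71, adjusted p = 0.0375), and the call was lost without any 1 of the arrays other than mixture in Cy5 replicate 3 (up to 0.128). The calls of ugt-50 and ugt-39 ended without each array other than mixture in Cy5 replicate 3, and that of ugt-58 without mixture in Cy5 replicate 1 and without each of the 3 arrays with the mixture in Cy3.

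For some ugt genes the arrays of the 2 orientations gave different ratios, and 4 of them, chosen after their values were seen, are described here. For ugt-8 the log2 ratio was -0.12, 0.76 and 1.22 with the mixture in Cy5 and 2.31, 2.71 and 1.96 with it in Cy3, with a mean of 1.48 ± 1.05 (adjusted p = 0.00391). For ugt-18 it was -0.05, 0.44 and 0.78 against 1.49, 1.42 and 1.99 (mean 1.01 ± 0.76, adjusted p = 0.00488). Both kept a positive mean in each orientation, unlike ugt-42, which had -0.30, -0.31 and -0.77 with the mixture in Cy5 and 1.31, 0.91 and 1.02 with it in Cy3 and was not called (0.31 ± 0.87, adjusted p = 0.0756). The opposite split was seen for ugt-63, with 1.39, 0.52 and 0.09 against -0.38, -1.04 and -1.01 (mean -0.07 ± 0.94, adjusted p = 0.849). Several of these probes were dim. The mixture was well above background on 4 arrays for ugt-8 and ugt-18, 2 for ugt-42 and 5 for ugt-63. The control was on 2 for ugt-8, 1 for ugt-18, 1 for ugt-42 and 5 for ugt-63. Tested by itself, the dye term passed an adjusted p of 0.05 in limma for 0 of the 64 ugt genes and for 4 of all features (0.0211%). At an unadjusted p under 0.05 in the same model it passed for 11 of the 64 ugt genes, a larger share than the 7.6% of all features (1443 of 18999). The adjusted p of the dye term was 0.425 for ugt-8, 0.421 for ugt-18, 0.222 for ugt-42 and 0.504 for ugt-63. Both slides of the earlier series had the mixture in Cy5, so that orientation and slide series cannot be told apart fully.

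Levels of ugt-26, ugt-31 and ugt-24 fell with the mixture, each with a ratio below 0 on all 6 arrays and with samples that overlapped between the groups. The ratio of ugt-26 was -0.16, -0.59 and -1.71 with the mixture in Cy5 and -1.45, -1.81 and -1.23 with it in Cy3. Its mean was -1.16 ± 0.66, or 2.23-fold lower (adjusted p = 0.0116, and 0.0556 without mixture in Cy3 replicate 2). For ugt-31 the log2 ratio ran from -1.30 to -0.36 with a mean of -0.80 ± 0.37, or 1.74-fold lower (adjusted p = 0.0032), and the call was kept with each array left out. The change of ugt-24 was the smallest of the 3, with ratios from -0.45 to -0.18 and a mean of -0.32 ± 0.09 (adjusted p = 0.0278). Its call was lost without any 1 of the arrays other than mixture in Cy5 replicate 3 (up to 0.0975). The gene ugt-49 was below 0 on all 6 arrays as well but did not pass the test (-0.49 ± 0.49, adjusted p = 0.104).

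Of the 38 ugt genes that were not called, those with probes above background in all samples and the smallest p were ugt-62 (0.43 ± 0.37, adjusted p = 0.0819), ugt-17 (0.31 ± 0.57, 0.156), ugt-29 (-0.33 ± 0.54, 0.231), ugt-46 (-0.15 ± 0.17, 0.313) and ugt-23 (-0.11 ± 0.23, 0.535). For ugt-62 the ratio was positive on 5 of 6 arrays, the exception being mixture in Cy5 replicate 3 (-0.07), and without that array it was 0.56 (adjusted p = 0.00777). The largest p under the same conditions belonged to ugt-48 (-0.05 ± 0.42, 0.799), ugt-12 (-0.04 ± 0.79, 0.937) and ugt-6 (-0.01 ± 0.26, 0.955). These means near 0 hid unlike arrays. The ratio of ugt-12 spanned -0.75 to 1.31 and that of ugt-6 only -0.46 to 0.25. A missed threshold does not show that the level of these genes was the same in both groups, and for the 8 genes not above background in any sample no difference was detectable with these probes.

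Many ugt genes lie next to each other in the genome. Differences between neighbours were not tested, and their values are given as a description. According to the order of genes in RefSeq assembly WBcel235, 34 of the measured members lay in a run of ugt genes with at most 1 other protein-coding gene between them, and 30 lay alone. Of the 34 in runs 14 were called higher and 1 lower (median log2 ratio 0.31), and of the 30 alone 9 were higher and 2 lower (median 0.18). Over all features 6.74% were called higher and 7.13% lower. The difference between members in runs and members alone was not tested. In the run of 4 genes on chromosome I the outer members went opposite ways, with ugt-26 at -1.16 and ugt-25 at 1.63, while ugt-27 (-0.01, not above background in any sample) and ugt-28 (0.07) between them were not called. The longest run, 8 genes on chromosome V, had 5 genes called higher (ugt-9, ugt-10, ugt-8, ugt-14 and ugt-13) and 3 that were not (ugt-12, ugt-11 and ugt-67), with log2 ratios from -0.04 to 1.63. On the same chromosome ugt-37, at 3.65, lay between ugt-40 (0.51, called) and ugt-38 (0.13, not above background in any sample). Likewise ugt-1 (1.55) had ugt-2 (0.12, adjusted p = 0.64) as its neighbour, and ugt-5 (1.20) was the only one called in a run with ugt-4 (0.17), ugt-6 (-0.01) and ugt-3 (0.06). In 3 of the runs of 2 genes neither was called, ugt-19 with ugt-20 (0.28 and 0.17), ugt-55 with ugt-56 (0.20 and 0.13, both not above background in any sample) and ugt-17 with ugt-47 (0.31 and -0.11). Whether probes of related members bind each other's transcripts was not tested.

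**Figure D3:**
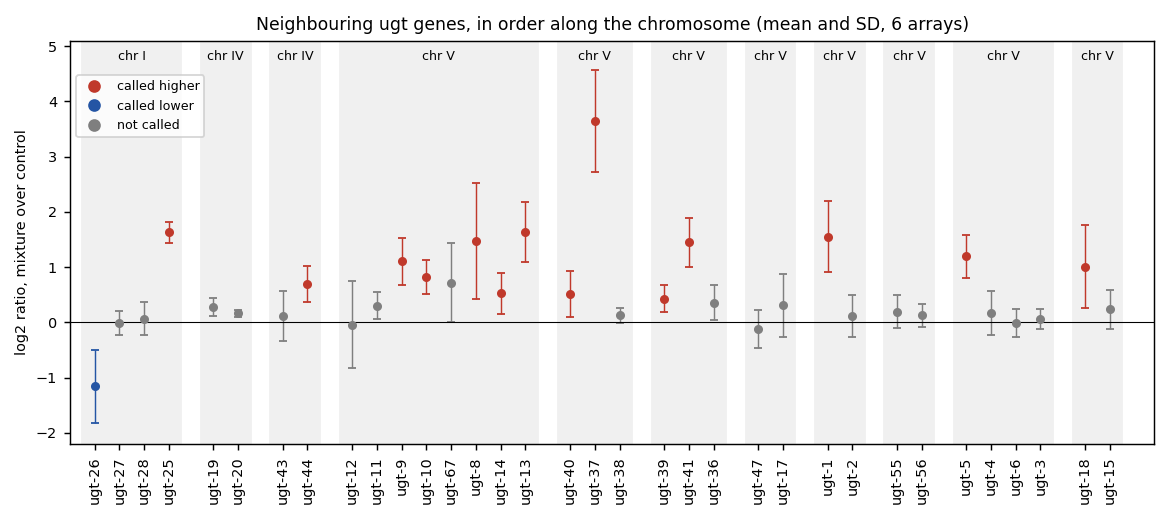
Mean log2 ratio of mixture over control (y axis) with the SD over 6 arrays for the ugt genes that lie in runs, in their order along the chromosome, with 1 grey block per run. The run on chromosome I goes from -1.16 (ugt-26) to 1.63 (ugt-25), and ugt-37 stands at 3.65 beside ugt-38 at 0.13.

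Chromosome V held 39 of the 64 ugt genes, of which 14 were called higher and 0 lower, against 7.84% called higher among all features on that chromosome. Each of the other chromosomes had at least 1 member called higher. It was 4 of 12 on IV (7.13% of all features there), 2 of 4 on X (11.7%), 1 of 5 on I (4%), 1 of 3 on III (5.38%) and the only one on II, ugt-58 (5.71%). The 3 genes called lower lay on I (ugt-26 and ugt-31) and IV (ugt-24).

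For 7 ugt genes the array carried several probes, which allowed a second look at the same gene (adjusted p over all probes). The 7 probes of ugt-5 all had a positive mean ratio, from 0.26 to 1.29. The probe used (1.20) and the next brightest (1.29 ± 0.28), both named for the transcript ZC455.6b, had the highest ratios, a dimmer probe of that transcript had 0.39, and the 4 probes named for ZC455.6a had 0.73, 0.60, 0.45 and 0.26. For ugt-41 the dimmer probe gave 0.45 ± 0.43 (adjusted p = 0.0998) where the probe used gave 1.45. For ugt-50 the 4 probes ran from 0.10 to 0.50 and only the brightest was called. The second probe of ugt-29 was called lower (-0.62 ± 0.40, adjusted p = 0.0317) while the brighter one was not (-0.33). The second probes of ugt-39 (-0.06) and ugt-49 (-0.11) were not well above background in any sample, and the 2 probes of ugt-60 gave -0.18 and -0.17.

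**Figure D4:**
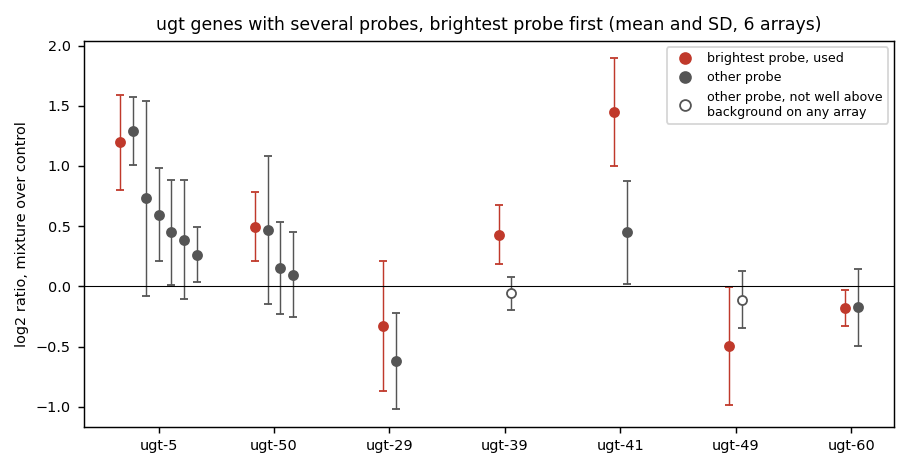
Mean log2 ratio of mixture over control (y axis) with the SD over 6 arrays for each probe of the 7 ugt genes with several probes, the brightest and used probe in red first and open points for probes not well above background in any sample. All 7 probes of ugt-5 lie above 0, between 0.26 and 1.29, and the probes of ugt-41 stand at 1.45 and 0.45.

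Other genes that make or use UDP-sugars, the donors of the ugt enzymes, were described beside them. Of 14 such genes measured, 3 were called higher and 0 lower (6.74% and 7.13% of all features), with a median log2 ratio of 0.11. They were cgt-1 (1.29 ± 0.35, adjusted p = 0.00218), a ceramide glucosyltransferase gene, gale-1 (0.75 ± 0.38, 0.0117), the gene of an epimerase of UDP-glucose and UDP-galactose, and tps-1 (0.54 ± 0.41, 0.0401), a trehalose-phosphate synthase gene. The difference between this share and that of the ugt genes was not tested. The count was 8 without mixture in Cy5 replicate 3 and 1 without mixture in Cy3 replicate 2 or 3. Of 15 regulators known from stress and foreign compound responses 14 were measured (nhr-49 was not matched), and 3 were called higher and 0 lower (median 0.16, the same shares of all features applying). They were pha-4 (0.67 ± 0.21, 0.00675), a forkhead factor of the foregut, hif-1 (0.49 ± 0.73, 0.029), the hypoxia-inducible factor, and wdr-23 (0.31 ± 0.13, 0.0409), which represses the detoxification regulator SKN-1. This count was 1 with any array other than mixture in Cy5 replicate 3 left out.

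Markers of other tissues moved with the mixture in these whole nematodes. Fewer cells of a type, less RNA per cell and a difference in developmental stage between the groups cannot be told apart here. The oocyte and yolk list was chosen because these genes moved with the mixture in an earlier analysis of the same data. Its count is therefore a description and no independent result. All 18 oocyte and yolk genes of the list were called lower, with a median log2 ratio of -1.47 and probes that were each well above background in both groups. Their summed intensity ran from 49328 to 158816 in the mixture samples and from 157933 to 293863 in the control samples. Of the 13 intestine markers 4 were called higher (ges-1, vha-6, cpr-1 and asp-1) and 0 lower, with a median of 0.15. Their summed intensity was 91022 to 147179 in the mixture and 72287 to 109491 in the control. The intestine list leaves out the yolk genes vit-1 to vit-6, which are counted with the oocyte genes. These were all called lower, from -1.45 (vit-2) to -2.25 (vit-1), so the intestine count does not stand for all intestinal transcripts. The shares of all features to set beside each tissue list were 6.74% called higher and 7.13% called lower. Of 7 measured sperm genes 4 were lower (msp-78, ssp-16, gsp-3 and gsp-4, median of the list -0.70). Of 7 epidermis genes 2 were higher (dpy-7 and rol-6, both 0.70) and 1 lower (col-19, -1.40), with a median of -0.03. Of 6 body wall muscle genes 1 was higher (myo-3, 0.85, median of the list 0.19). Of 6 neuron genes 0 were called (median 0.30, above the ugt median of 0.27). The part of these shifts in the ugt ratios was not tested. The oocyte and yolk median was nearest to 0 on mixture in Cy5 replicate 3 (-0.29) and farthest on mixture in Cy5 replicate 2 (-2.60). On the former the 23 genes called higher had log2 ratios from 0.09 to 3.51 with a median of 0.90. For 10 of them the ratio was above and for 13 below their own mean over the 6 arrays. For 6 (ugt-33, ugt-22, ugt-1, ugt-41, ugt-10 and ugt-50) it was the highest of the 6 ratios, and for 5 the lowest, namely ugt-13 (1.04), ugt-21 (0.37), ugt-66 (0.16), ugt-44 (0.15) and ugt-51 (0.09). The median of all 64 ugt genes was 0.19 there, 0.42 on mixture in Cy5 replicate 2 and positive on all 6 arrays, the lowest being 0.15 on mixture in Cy3 replicate 1.

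**Figure D5:**
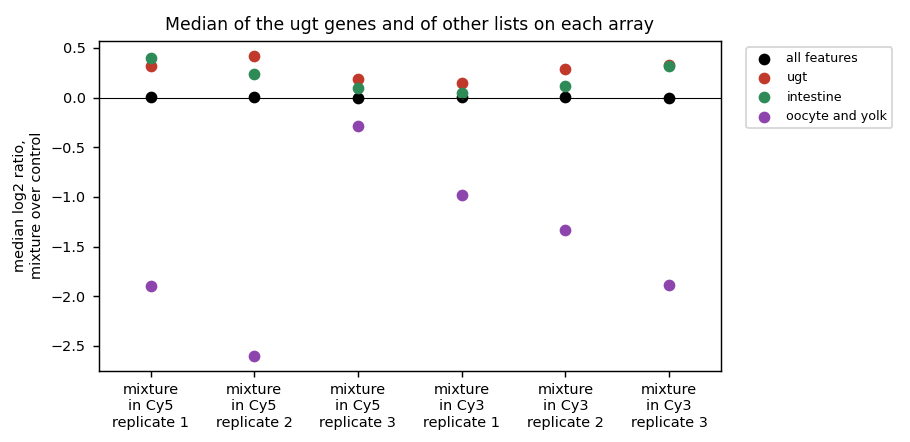
Median log2 ratio of mixture over control (y axis) on each of the 6 arrays for the 64 ugt genes (red), all features (black), the 13 intestine markers (green) and the 18 oocyte and yolk genes (purple). The ugt medians lie between 0.15 and 0.42 on all arrays, while the oocyte and yolk medians range from -2.60 to -0.29. The oocyte and yolk list was chosen because it moved with the mixture in an earlier analysis of these data.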

How the data were processed

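The deposited scanner files hold the intensity of each spot (foreground and background medians and SDs) and the percent of saturated pixels in each channel, with no normalization per the file headers. A value table deposited by the authors gives log2 ratios, which ran as mixture over control on each array when set against the scanner values. Its scale and background correction stay unknown (column medians -0.00313 to 0.000102), and it was used as an alternative. According to the methods, the authors normalized by loess within arrays and Aquantile between arrays, and the submitters' processing notes name limma 3.2.3.

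Each array had 23232 spots, of which 22490 were C. elegans probes. Genes were named through the platform table and the sequence name with RefSeq. Of 78 ugt probes, 63 had the same name in both and 15 were named by the sequence name. Here the background was corrected with normexp (offset 50), ratios were normalized by loess and Aquantile, and a limma 3.58.1 model (R 4.3.3) with a mixture effect and a dye term was fitted to the 6 log2 ratios, two-sided. All spots were kept, since no source used here explains the spot flags. On simulated arrays with 18999 features the steps recovered 85 of 100 genes changed 2-fold, with 7 false calls in all. The changed genes were drawn from bright probes only and the noise was independent between arrays. The recovery therefore does not describe the dimmer ugt probes.

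The members and lists were chosen with earlier results of these data known. Named were the 12 largest higher ratios among eligible called ugt genes. These had 1 sign throughout the 6 arrays and were above background on 3 or more arrays of each group. Every gene called lower or given as a bound was named as well. So were the 5 smallest and 3 largest p among uncalled genes above background in all samples. Called list genes were named except in the oocyte and yolk list, where only the vit genes were. A part of the rule based on protein identity was not used here. Alternatives were other background corrections, normalizations, probe, spot and dye choices, the methods' linear model, batches and arrays left out. P-values of the limma model reflect only the spread between arrays that is left after the dye term. Each gene's variance is drawn toward a value shared by all features. The p-values therefore do not measure the SD printed beside a mean, which includes the difference between the dye orientations.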

Additional observations from a re-analysis of the deposited data

Results flagged for a closer look

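The log2 ratio of ugt-37 on mixture in Cy3 replicate 1 was 1.88, apart from the 3.51 to 4.40 of the other 5 arrays. The gap to the nearest array was 0.646 of the whole range, over Dixon's 95% critical value for 6 values. Of 35 ugt genes examined in this way this was the only one, and chance alone marks about 1 in 20.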

How the results depend on the processing

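Of the 26 called ugt genes, ugt-37, ugt-25, ugt-33, ugt-10, ugt-13 and ugt-5 kept their call under every alternative that gave a value for them, and no called gene changed sign. The other 20 lost it under at least 1 alternative. For ugt-10, above background on 2 mixture arrays and 0 control arrays, the restrictions to spots or probes above background gave no value. Its log2 ratio ran from 0.41 to 3.79 over the 22 alternatives that gave one. For the 8 ugt genes not above background in any sample the signal allowed no comparison.

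The main counts were 23 ugt genes higher and 3 lower, 1281 features higher and 1355 lower, 3 UDP-sugar genes and 3 regulators. Plain background subtraction gave 15 and 0 ugt genes (median 0.58), 278 and 131 features, 1 UDP-sugar gene and 1 regulator. The ugt median was 0.16 with no background correction and 0.10 in the authors' value table. Median centring gave 21 and 9 ugt genes, 679 and 3439 features and 6 UDP-sugar genes. Restriction to the most frequent spot flag, of which 0.124% were above background, left 6 ugt genes and 0 calls in every count (limma, 0 at an unadjusted p under 0.05), with a ugt median of 0.087. Restriction to flag 3, an alternative chosen after seeing the data, left 23 ugt genes, of which 9 were higher and 1 lower, with 781 features higher and 1 UDP-sugar gene. The methods' linear model at an unadjusted p under 0.01 gave 14 and 1 ugt genes, 293 and 290 features, 1 UDP-sugar gene and 0 regulators, and after Benjamini-Hochberg adjustment 6 and 0, 50 and 6, 1 and 0.

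With the slide series as a block 30 ugt genes were higher and 2014 and 2294 features were called, with 5 UDP-sugar genes. Within the later slide series 14 ugt genes were higher (4 lower), with 382 and 509 features, 1 UDP-sugar gene and 1 regulator. Within the shared scan day 24 ugt genes were higher, with 1593 features higher and 1814 lower and 6 UDP-sugar genes called. With the scan day as a block 23 ugt genes were higher, with 1249 features higher and 1235 lower. With the arrays of the shared extract number averaged 20 ugt genes were higher, with 925 features higher and 918 lower and 1 regulator called. Same-numbered arrays did not deviate together (correlations -0.107, -0.00647 and -0.233). With so few arrays per orientation this check cannot exclude that the numbers pair them. With a replicate block 17 ugt genes were higher and 2 lower, 531 and 419 features and 1 regulator were called.

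With 1 array left out, 14 to 28 ugt genes were higher and 1 to 3 lower, 357 to 2173 features higher and 178 to 2436 lower, and 1 to 8 UDP-sugar genes and 1 to 4 regulators were called. Uncalled ratios near 0 changed sign: ugt-12 to 0.052 with plain subtraction, 0.013 with print-tip loess, 0.39 with flag 3 and 0.30 within the shared scan day; ugt-6 to 0.011 with plain subtraction, 0.10 with the mean foreground, 0.00025 with print-tip loess, 0.088 in the authors' value table and 0.032 within the later series; ugt-48 to 0.063 in the authors' value table. With 1 array left out ugt-12 ranged from -0.25 to 0.18, ugt-6 from -0.071 to 0.067 and ugt-48 from -0.13 to 0.033. The causes were not tested.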
